A study of Mus musculus with 2 samples.

Results

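The genes described here are those of redox defence on a mouse bead array: glutathione transferases and glutathione synthesis, peroxiredoxins and other peroxidases, the thioredoxin system, aldehyde-metabolising dehydrogenases and reductases, metallothioneins, selenoproteins, and the iron-handling genes Fth1, Ftl1 and Trf. They were chosen by symbol, from the start of each name (for example Gst, Prdx, Txn, Aldh, Akr, Seleno) or from the exact name (Cat, Mt1 to Mt4). The rule found 52 genes with 63 probes among the 8102 genes that could be named on the array. Here a gene counts as found on the array if a probe could be named for it. Genes not found may still have probes that could not be named. The mouse gene table holds 150 protein-coding genes that fit the rule, and 98 of them, Mt2, Tfrc, Hmox1, Nqo1, Nfe2l2, Keap1, Gpx4 and Sod2 included, are not analysed here.

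The study compared mouse ES cells, labelled day 0, with EB cells, labelled day 4, on 1 array each of the same chip. The abbreviations usually stand for embryonic stem cells and for embryoid bodies, clusters of cells that form as stem cells leave the undifferentiated state in suspension. The labels give no strain, line, medium or feeder layer, and name for both samples only total RNA from a spin column and the array maker's biotin labelling. With 1 sample per group no test could be made, and culture, array and group cannot be told apart.

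Glutathione is the main small thiol of the cell. Its transferases couple it to electrophiles, peroxiredoxins and glutathione peroxidases remove peroxides with thioredoxin or glutathione as the reducing partner, and metallothioneins and ferritin hold zinc, copper and iron in bound form. Many of these genes answer to the transcription factor NRF2 through antioxidant response elements, and metallothionein genes answer to the zinc-sensing factor MTF1 through metal response elements. Embryonic stem cells are known for low levels of reactive oxygen, and for changes of metabolism and mitochondria as they differentiate.

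Signals are bead means, quantile normalized over both arrays, in arbitrary units. A difference is the log2 signal in EB minus that in ES, and its standard error is the bead-level one, which covers measurement within the arrays and no biological variation. A gene counts as higher or lower, the 2-fold size rule, at a log2 difference of at least 1 in either direction if it was detected on at least 1 array. The signal floor, 230.0 units, matches a detection score of 0.99 in EB; where the dimmer signal is under it, the floor takes its place and the fold is written "at least". A median of 38 beads lay behind a signal in ES and 37 in EB, and 15 to 55 behind the signals of these 63 probes. Different probes are not compared in level with each other, since probes bind with different strength. For the same reason, a gene under the floor or not detected is not shown to be silent.

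The marker lists describe the samples and were chosen with earlier results of these data known, so they are no test of the labels. Of 13 listed undifferentiated ES markers 11 were found on the array, and 9 of these were lower in EB. Of 9 listed markers of primitive streak and mesoderm 5 were found, and all 5 were higher. The fibroblast markers Col1a2, Col3a1, Postn, Dcn and S100a4 were under the floor on both arrays, while Col1a1 was 2.58-fold lower and Fbln2 6.04-fold higher. The summed signal of the 7 fibroblast markers was 3791 in ES and 3961 in EB, and that of 7 primitive and visceral endoderm markers 3017 and 3652. These sums, like that of the blood markers below, add probes of unlike strength with their background and give no share of a cell type. The fibroblast sum was set mostly by Col1a1 and Fbln2, which went opposite ways. Of 5 markers of primitive blood found on the array 4 were detected and 3 were higher in EB, each from an ES signal under the floor: the globins Hba-x and Hba-a1 at least 3.26-fold and at least 2.23-fold, and the erythroid factor Nfe2 at least 1.82-fold. Hbb-y and Itga2b were under the floor on both arrays, and the summed signal of the 5 was 866 in ES and 2044 in EB. In RNA from a whole culture, fewer cells of a type and less RNA per cell cannot be told apart.

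Of the 52 genes, 41 were detected on at least 1 array, 36 exceeded the floor on at least 1 and 33 on both. Among the 41, 2 were higher in EB (Selenok and Fth1) against 2.78% of all 5183 detected named genes, and 3 were lower (Mt1, Trf and Gstm2) against 3.99%. By share of the 41, that is 4.88% higher and 7.32% lower; with 2 arrays no test of these shares was made. The remaining 36 detected genes stayed within 2-fold. The median log2 difference was 0.02, beside 0.0015 for all detected named genes, and 21 differences were positive and 20 negative. Detection had a lower signal limit in ES than in EB, so dim genes entered more easily when their ES signal was higher. Above the floor on at least 1 array, 19 redox genes were positive and 17 negative, beside 2140 and 1720 of 3867 named genes. At a 1.5-fold limit 7 of the 41 genes lay on each side. All 5183 detected named genes gave 479 (9.24%) on the higher and 471 (9.09%) on the lower side. The share of the redox genes was the larger on both sides, and these shares were not tested. Higher and lower signals were thus about equally frequent, and the values below describe single genes and families.

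**Figure D1:**
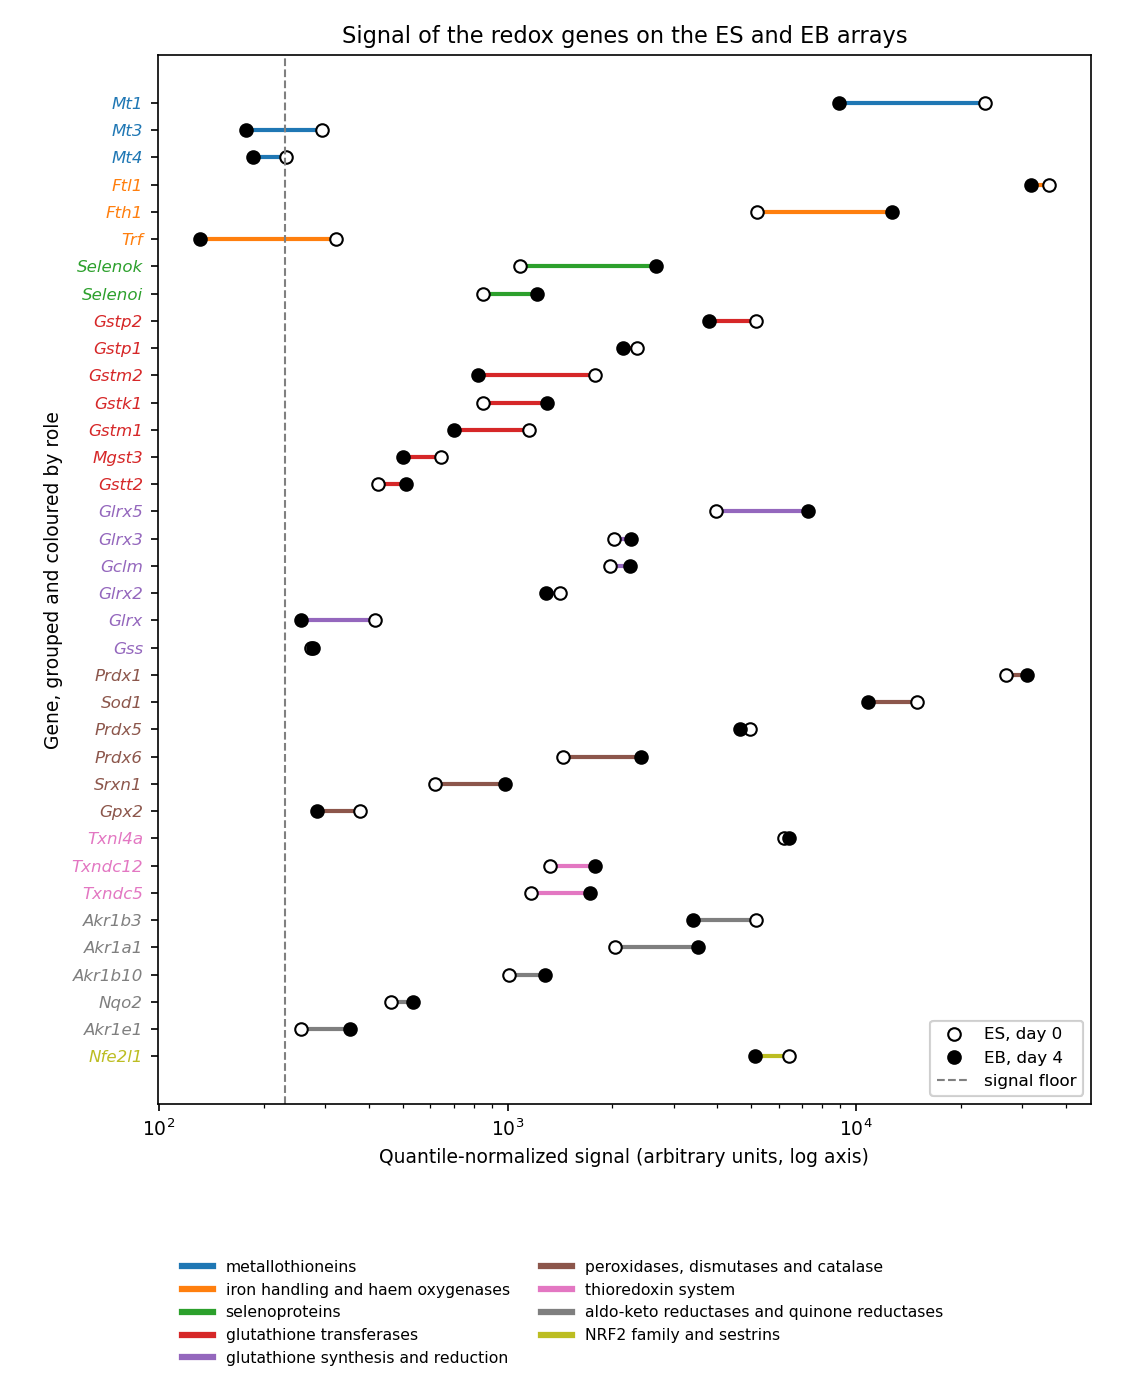
Quantile-normalized signal, on a log axis in arbitrary units, of the 36 redox genes above the signal floor on at least 1 array; open circles are ES, day 0, filled circles EB, day 4, the line joins them and its colour gives the role. Mt1, Gstm2 and Trf have the longest lines towards lower EB signal, and Fth1 and Selenok towards higher EB signal.

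The promoters of Mt1, Fth1, Selenok and Srxn1 are shown because Mt1, Fth1 and Selenok had the largest differences among genes above the floor on both arrays, and because Srxn1, a classical NRF2 target, had the most probes. Each is the RefSeq sequence of assembly GRCm38.p6, 5′ to 3′ in the direction of the gene, from 250 bases before to 30 after the annotated start. Capitals mark matches on either strand to the core of the antioxidant response element (TGACNNNGC or TGAGNNNGC) or of the metal response element (TGCACNC or TGCGCNC).
Mt1 (chr8:94178839-94179118, plus strand): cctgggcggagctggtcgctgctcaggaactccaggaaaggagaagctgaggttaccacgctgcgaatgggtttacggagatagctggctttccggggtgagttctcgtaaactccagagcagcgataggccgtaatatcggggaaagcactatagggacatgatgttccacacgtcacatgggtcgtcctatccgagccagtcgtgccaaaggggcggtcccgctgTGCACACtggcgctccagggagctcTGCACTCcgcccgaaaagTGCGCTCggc
Fth1 (chr19:9982396-9982675, plus strand, the second of 2 annotated starts): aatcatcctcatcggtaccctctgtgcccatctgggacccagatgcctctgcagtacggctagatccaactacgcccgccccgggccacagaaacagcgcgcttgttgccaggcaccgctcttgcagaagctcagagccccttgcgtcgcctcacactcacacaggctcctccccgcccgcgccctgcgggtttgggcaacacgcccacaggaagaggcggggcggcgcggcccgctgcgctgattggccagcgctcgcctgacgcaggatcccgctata
Selenok (chr14:29968130-29968409, plus strand): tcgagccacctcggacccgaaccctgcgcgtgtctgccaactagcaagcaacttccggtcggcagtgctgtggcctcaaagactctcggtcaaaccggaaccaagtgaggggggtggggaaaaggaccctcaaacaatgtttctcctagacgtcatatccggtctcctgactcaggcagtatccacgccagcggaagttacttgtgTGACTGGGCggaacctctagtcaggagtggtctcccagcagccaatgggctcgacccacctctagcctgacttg
Srxn1 (chr2:152105274-152105553, plus strand): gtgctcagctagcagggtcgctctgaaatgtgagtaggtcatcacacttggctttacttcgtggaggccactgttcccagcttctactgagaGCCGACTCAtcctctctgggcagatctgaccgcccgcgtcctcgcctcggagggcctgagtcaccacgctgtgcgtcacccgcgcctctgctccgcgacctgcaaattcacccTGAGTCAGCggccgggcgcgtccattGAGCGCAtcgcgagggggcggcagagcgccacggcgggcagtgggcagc

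The Mt1 window holds 3 metal response cores, 1 before and 2 after the annotated start, and no antioxidant core, whereas 1.73% of all 32851 windows of this length hold at least 3 metal response cores. The Srxn1 window holds 2 antioxidant cores and 1 metal response core; at least 2 antioxidant cores occur in 4.01% of all windows. In Srxn1, 1 of the antioxidant cores overlaps the AP-1 motif TGANTCA. Selenok holds 1 antioxidant core, and Fth1 none of either kind. Of 43 of the 52 genes with an entry outside chromosome 18, 14 had an antioxidant core in at least 1 window and 15 a metal response core. Counted by window, that is 32.8% of 58 windows for the antioxidant core, against 26.0% of all windows, and 29.3% for the metal response core, against 24.1%. Among detected genes the median log2 difference was 0.03 for the 13 with an antioxidant core and -0.04 for the 22 without, and -0.14 for the 12 with a metal response core and 0.02 for the 23 without. A match of letters describes the window and is not evidence of binding. The annotated start may not be the one used in these cells, and sequence beyond the window was not searched. A window without a core therefore does not show that the promoter lacks one.

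Metallothioneins are small cysteine-rich proteins that bind zinc and copper, and all 3 that were measured had lower signal in EB. Mt1, the form made in most tissues (identifier scl017748.3_145-S, chromosome 8), gave 23434 units on the ES array and 8908 on the EB array. It was 2.63-fold lower, with a log2 difference of -1.40 ± 0.07 (bead-level standard error). The share of genes lower by the size rule depended on the limit set on the mean signal, and was 4.02% at 1000 and 2.82% at 5000. Of 176 named genes with a mean signal of at least 10000, 2 were, or 1.14%, Mt1 being 1 of them and the mismatch repair gene Msh6 the other. The log2 difference of Mt1 lay between -1.41 and -1.31 under 6 other ways of scaling, background correction and probe choice. With 1 probe and both signals above the floor, the mean over probes and signals raised to the floor left it unchanged by construction.

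Mt3, a form known from brain (scl017751.1_8-S), gave 293 units on the ES array and 177 on the EB array, at least 1.27-fold lower with EB under the floor; its measured log2 difference was -0.73 ± 0.10. Mt4, known from stratified epithelia (scl017752.3_0-S), lay at the floor in ES (232) and under it in EB (186). Both signals were thus at the edge of detection, and the metallothionein result rests on Mt1. All 3 genes lie on chromosome 8. Mtf1, the zinc-sensing activator of metallothionein genes, gave 296 units on the ES array and 204 on the EB array, with EB under the floor. Of 6 genes of zinc transport and metal response that were found on the array, 5 were detected and 1 passed the rule: Mtf2, which in spite of its metal-response name is known as a partner of Polycomb repressive complexes, with 10452 units on the ES array and 4273 on the EB array, 2.45-fold lower. The zinc importers Slc39a1 and Slc39a10 gave log2 differences of 0.30 and 0.33.

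Among the iron genes, the heavy subunit of ferritin was higher in EB and the light subunit was within the size rule. Fth1, the ferroxidase subunit (scl014319.1_33-S, chromosome 19), gave 5211 units on the ES array and 12702 on the EB array, 2.44-fold higher, with a log2 difference of 1.29 ± 0.09. Ftl1, the light subunit (scl0014325.1_328-S, chromosome 7), went from 35737 units on the ES array to 31671 on the EB array, with a log2 difference of -0.17 ± 0.09. Whether the 2 subunits differ from each other was not tested. Of 5 primitive blood markers, Hba-x, Hba-a1 and Nfe2 were higher in the same array as Fth1. Hbb-y and Itga2b were under the floor on both arrays, and the part of such cells in the Fth1 value was not tested. The gene table lists 2 pseudogenes named after Ftl1, whose transcripts the probe might also bind; the probe sequences are not given in the files. Of 354 named genes with a mean signal of at least 5000, 6 were higher, or 1.69%, and 10 lower, or 2.82%; among the 8 redox genes this bright, Fth1 was the 1 higher and Mt1 the 1 lower gene.

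Trf, serum transferrin, the carrier of iron in blood (scl022041.3_13-S, chromosome 9), gave 322 units on the ES array and 131 on the EB array. The EB signal was under the floor, so Trf was at least 1.40-fold lower, although its measured log2 difference was -1.30 ± 0.14. Transferrin is also a product of visceral endoderm. Of the other 6 endoderm markers, Gata4 was at least 1.97-fold higher, Dab2 gave 0.46 ± 0.12 and Apoe 0.31 ± 0.10. Apoa1 (0.13 ± 0.13) and Lamb1 (0.18 ± 0.15, with ES under the floor) gave differences about as large as their bead-level errors. Apoa2 was under the floor on both arrays. The part of endoderm cells in the Trf value was not tested. Of 4 further iron genes on the array 3 were detected and none passed the rule; Pcbp2, an RNA-binding protein that also delivers iron to ferritin, gave 0.19.

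The 3 genes with a Seleno symbol, whose proteins carry selenocysteine, had positive differences. Of all 5183 detected named genes 2600 were positive, and of the 3867 above the floor on at least 1 array 2140 were. The selenocysteine enzyme Gpx2, counted here among the peroxidases, gave -0.41. Selenok, a membrane protein of the endoplasmic reticulum known for its part in protein palmitoylation (scl080795.5_227-S, chromosome 14), gave 1083 units on the ES array and 2672 on the EB array. It was 2.47-fold higher, with a log2 difference of 1.30 ± 0.10 that lay between 1.30 and 1.47 under the 6 other settings. As for Mt1, the mean over probes and signals raised to the floor could not alter it. The gene table lists 8 pseudogenes named after Selenok, so the signal may include other copies. It lists 1 each for Gstm2, Gpx2, Prdx1 and Prdx6, and 2 for Prdx2. Copies under other names were not counted, so genes without such an entry, Fth1 included, may have copies too. Selenoi, an enzyme of phosphatidylethanolamine synthesis, had signals of 851 and 1218 and a log2 difference of 0.52 ± 0.10. Selenof, which takes part in glycoprotein folding, was under the floor on both arrays. Of 9 listed genes of selenoprotein synthesis and deiodination, Sepsecs alone was found, with 216 units in ES and 239 in EB.

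**Figure D2:**
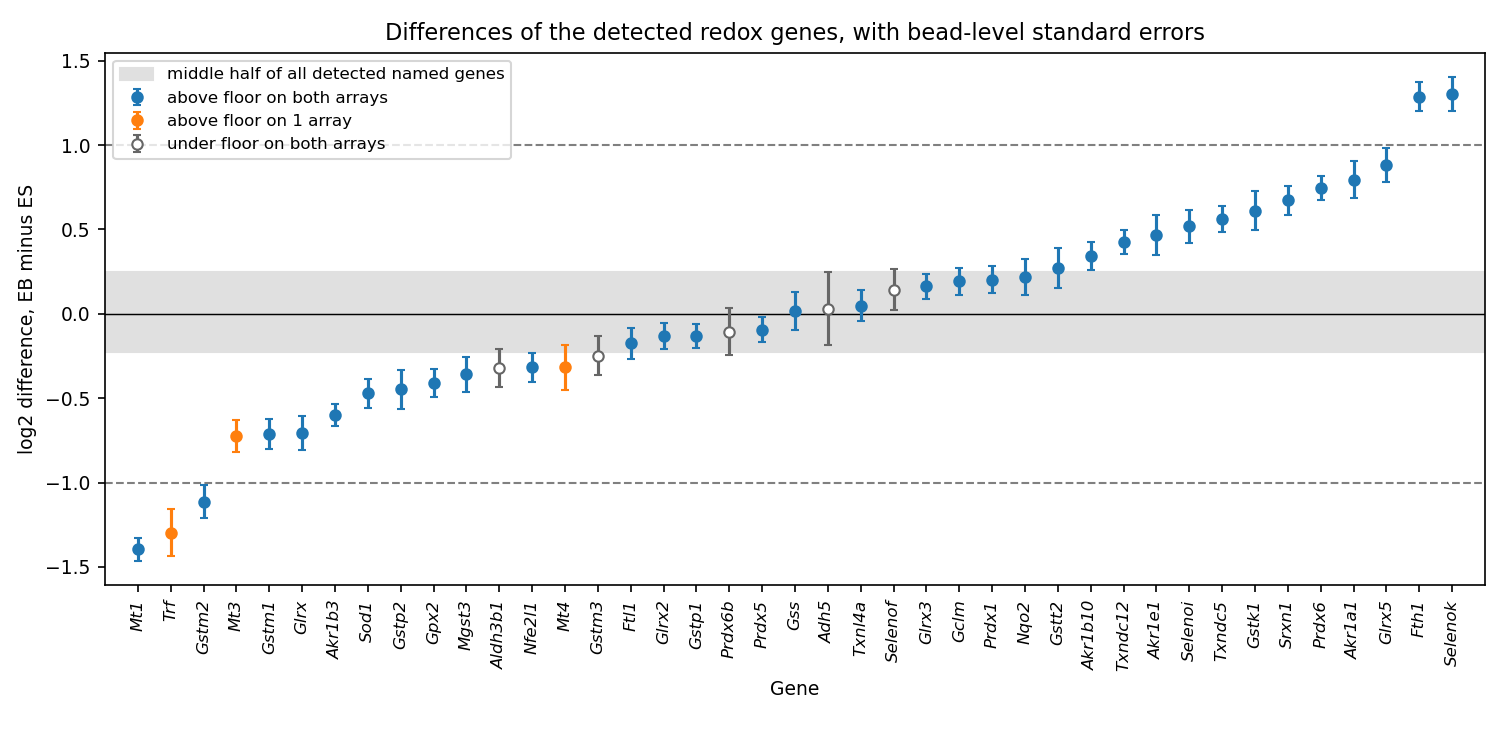
Log2 difference in signal, EB minus ES, of the 41 detected redox genes in rising order, with bead-level standard errors; colour gives whether the signals exceeded the floor, the dashed lines mark 2-fold, and the grey band runs from the lower (-0.23) to the upper quartile (0.25) of all detected named genes. Mt1, Trf and Gstm2 lie beyond the lower line and Fth1 and Selenok beyond the upper one.

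Of 8 detected glutathione transferases 1 passed the size rule, and the median log2 difference was -0.30. Differences were negative for 6 and positive for 2. Among the 6 were Gstm3, with both signals under the floor, and mu- and pi-class neighbours whose probes may share transcripts. Of all 5183 detected named genes 2573 were negative, and of the 3867 above the floor on at least 1 array 1720 were. The call fell in the mu class. Gstm2 (scl014863.1_325-S, chromosome 3) gave 1779.5 units on the ES array and 822 on the EB array, 2.16-fold lower, with a log2 difference of -1.11 ± 0.10. Its second probe had signals of 431 and 287 and a log2 difference of -0.59 ± 0.06, and the mean over both probes, -0.85, did not pass the rule, so that call depends on the probe. Gstm1 (scl014862.2_242-S) gave -0.71 ± 0.09, from 1149.9 in ES to 702 in EB, while its second probe was under the floor on both arrays. Gstm3 was under the floor on both. The mu-class genes lie next to each other on chromosome 3 and are alike in sequence, so their probes may share transcripts.

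The pi class differed less. Gstp2 (scl0014869.1_77-S) gave 5171 units on the ES array and 3790.2 on the EB array, a log2 difference of -0.45 ± 0.11. The 2 probes of Gstp1, a near-identical neighbour on chromosome 19, gave -0.13 and -0.15. Mgst3, a membrane-bound transferase, gave -0.36. On the other side, Gstk1, the kappa-class enzyme of mitochondria and peroxisomes (scl076263.8_129-S), had signals of 851 and 1300.5, a log2 difference of 0.61 ± 0.12, and Gstt2 of the theta class gave 0.27. The alpha-class genes Gsta1 and Gsta2 were not detected.

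Of 6 genes that make or use reduced glutathione, all were above the floor on both arrays and none passed the 2-fold rule. Gclm, the modifier subunit of the rate-limiting ligase, gave 1963 units on the ES array and 2242 on the EB array and a log2 difference of 0.19 ± 0.08. Gss, which completes the tripeptide, gave 0.02 ± 0.11, with a sign that turned without quantile normalization. The glutaredoxins went different ways. Glrx5, which serves mitochondrial iron-sulfur cluster assembly (scl0073046.2_136-S, chromosome 12), gave 3960.2 units on the ES array and 7284 on the EB array, 1.84-fold apart, and was the gene nearest under the rule at a log2 difference of 0.88 ± 0.10. The EB signal of Glrx5 exceeded the ES signal, as did those of Hba-x, Hba-a1 and Nfe2 among the 5 blood markers. Hbb-y and Itga2b were under the floor on both arrays, and the part of such cells in the value was not tested. Glrx, the cytosolic thiol-disulfide enzyme (scl093692.3_322-S, chromosome 13), had signals of 418 and 256 and a log2 difference of -0.71 ± 0.10. Glrx2 of mitochondria gave -0.13 and Glrx3, a cytosolic iron-sulfur protein, 0.16 by its brighter probe; the second probe of Glrx3 was under the floor. The cystine importer Slc7a11 and 2 other genes of glutathione turnover on the array were not detected.

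Enzymes that remove peroxide and superoxide had 7 detected members, of which 0 passed the rule. Prdx1, a cytosolic peroxiredoxin (scl018477.6_2-S, chromosome 4), gave 26974 units on the ES array and 31044 on the EB array and a log2 difference of 0.20 ± 0.08. Sod1, the copper-zinc dismutase (scl020655.4_35-S, chromosome 16), had 14996.5 and 10816, a log2 difference of -0.47 ± 0.08. Prdx5, a peroxiredoxin of mitochondria and peroxisomes (scl0054683.2_242-S, chromosome 19), gave 4976 units on the ES array and 4657 on the EB array, a log2 difference of -0.10 ± 0.07. Its second probe gave 3715.9 and 3586, a log2 difference of -0.05 ± 0.07. Prdx6, a 1-cysteine peroxiredoxin that is reduced through glutathione (scl011758.1_35-S, chromosome 1), had signals of 1443 and 2417 and a log2 difference of 0.74 ± 0.07. Its second probe was under the floor on both arrays. Gpx2, the glutathione peroxidase known from gut epithelium, gave -0.41, from 378 to 284. Prdx2, which was not detected, and Prdx6b were under the floor on both arrays.

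Srxn1, sulfiredoxin, which restores over-oxidised peroxiredoxins (scl0076650.1_42-S, chromosome 2), had 3 probes above the floor on both arrays. The brightest gave 619 units on the ES array and 986 on the EB array, the next 350.1 and 549.9, and the third 272 and 450. Their log2 differences were 0.67 ± 0.09, 0.65 ± 0.09 and 0.72 ± 0.11. All 3 probes thus gave the same direction within their bead-level errors, 1.59-fold by the brightest and under the size rule.

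**Figure D3:**
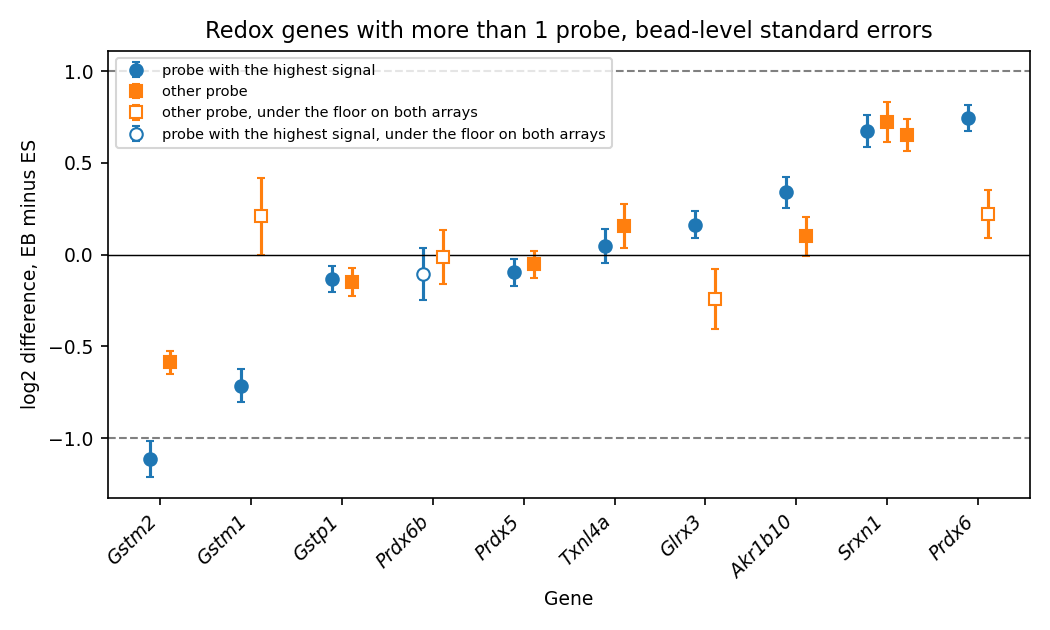
Log2 difference, EB minus ES, for each probe of the 10 redox genes with more than 1 probe, with bead-level standard errors; circles are the brightest probe of a gene, squares the others, and open symbols lie under the floor on both arrays. The 3 probes of Srxn1 coincide between 0.65 and 0.72, while the probes of Gstm2 lie at -1.11 and -0.59, on either side of the 2-fold line.

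For scale, over 390 genes of the whole array with exactly 2 probes above the floor on at least 1 array, the log2 differences of the 2 probes differed with a standard deviation of 0.40 and a median absolute gap of 0.20. The bead-level error of a redox gene above the floor was 0.09 in the median, so it covers only part of the uncertainty of a gene's value. Of the 5 genes past the size rule, 4 were measured by 1 probe, Gstm2 being the other.

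In the thioredoxin system 3 of 7 genes were detected, and none passed the rule. Txndc5 and Txndc12, thioredoxin-domain proteins of the endoplasmic reticulum, had log2 differences of 0.56 ± 0.08 (signals of 1166 in ES and 1721 in EB) and 0.43 ± 0.07 (1325 and 1779.8). Txnl4a (scl027366.4_62-S), which has a thioredoxin fold but is known as a component of the spliceosome, gave 6215 units on the ES array and 6422 on the EB array, a log2 difference of 0.05 ± 0.09. Its second probe had signals of 236 and 264 and a log2 difference of 0.16 ± 0.12. Txnl1, Txndc15 and the methionine sulfoxide reductases Msra and Msrb3 were not detected.

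Of 6 aldo-keto and quinone reductases 5 were detected and none passed the rule. Akr1a1, aldehyde reductase (scl058810.1_30-S, chromosome 4), gave 2033 units on the ES array and 3528 on the EB array and a log2 difference of 0.80 ± 0.11. Akr1b3, aldose reductase, which turns glucose to sorbitol (scl0011677.2_223-S, chromosome 6), went the other way, with 5176 and 3414 and a log2 difference of -0.60 ± 0.07. Both are broad NADPH-dependent carbonyl reductases, and their differences had opposite signs. Akr1b10 gave 0.34 by its brighter and 0.10 by its second probe, Akr1e1 0.47 and Nqo2 0.22. The probes of the aldehyde and alcohol dehydrogenases were dim. All 5, for Aldh1a1, Aldh3b1, Aldh3b3, Aldh8a1 and Adh5, were under the floor on both arrays, so no fold is given. Whether the genes are silent or the probes weak cannot be told from these signals. Aldh1a1, which makes retinoic acid, had signals of 150.4 and 172. Of the retinoid genes outside the rule, Rdh10 gave 0.19 and Rara was under the floor in EB.

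Nfe2l1, the NRF2 relative known for control of proteasome genes (scl018023.1_196-S, chromosome 11), was the one regulator of its family found. It gave 6406 units on the ES array and 5142 on the EB array and a log2 difference of -0.32 ± 0.09. Of 7 other genes of the NRF2 pathway on the array 5 were detected and none passed the 2-fold rule; Bach1, a repressor at antioxidant elements, had the largest difference, 0.70 (273 and 445), and Sqstm1, Cul3 and Mafg gave 0.18, -0.10 and -0.18. A list drawn up around NADPH supply, not all of whose enzymes make NADPH themselves, had 1 of 5 detected genes past the rule. Idh1, the cytosolic isocitrate dehydrogenase, gave 1626 units on the ES array and 3440.1 on the EB array, 2.12-fold higher. Me2, Pgd and Tkt also had positive differences (0.75, 0.62 and 0.43), and Taldo1 a negative one (-0.39). Among sources of reactive oxygen 4 of 6 genes were detected, with 0 past the rule.

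**Figure D4:**
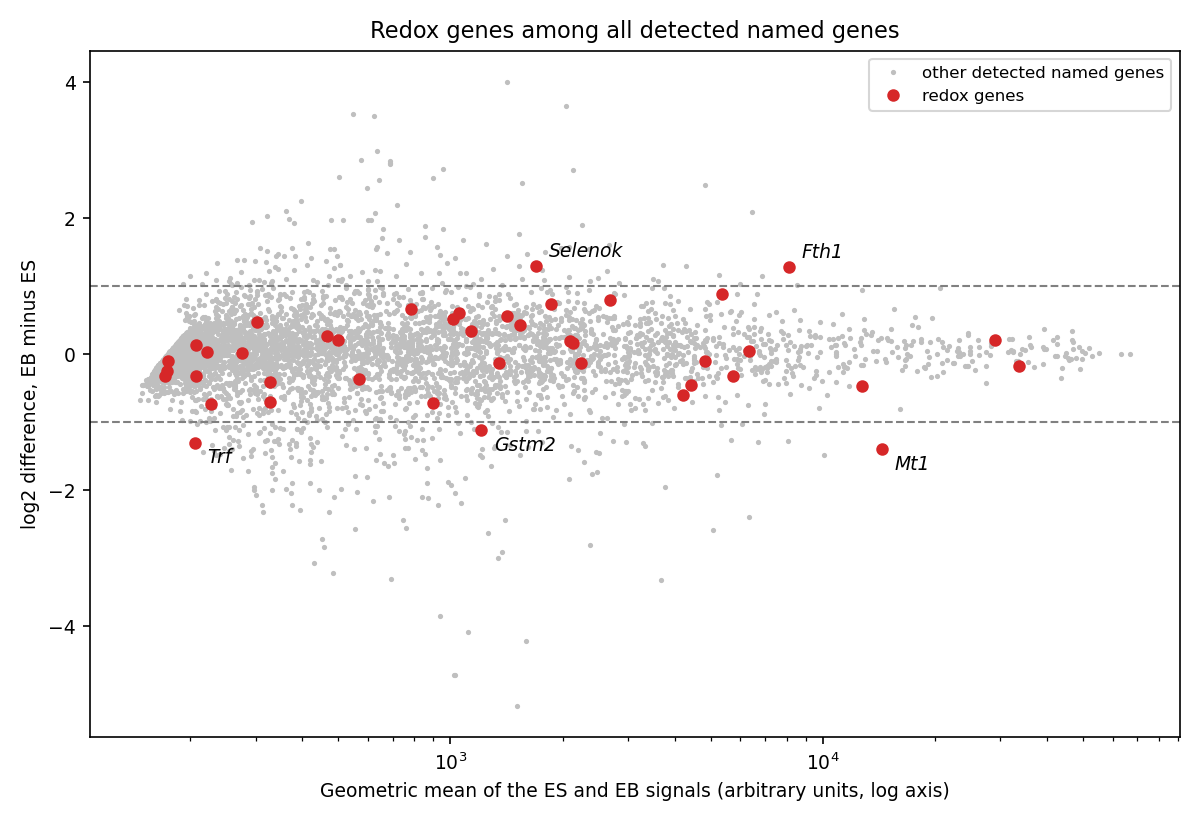
Log2 difference, EB minus ES, against the geometric mean of the ES and EB signals (log axis) for the 5183 detected named genes in grey and the 41 detected redox genes in red, with dashed lines at 2-fold. The 5 named redox genes lie beyond the lines, Mt1 being the brightest of them.

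Restricted to a mean signal of at least 1000, where differences of both arrays are well above background, 24 redox genes were left. Of these 24, 2 were higher, beside 44 (2.85%) of 1544 named genes, and 2 were lower, beside 62 (4.02%). These shares were not tested. The median log2 difference was 0.18 beside 0.04 for all genes this bright. The redox genes at or over 5000 in mean signal had 4 positive and 4 negative differences.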

How the data were processed

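RNA of 1 ES sample (day 0) and 1 EB sample (day 4) was hybridised to bead arrays of 46643 probes. Per the file headers, the deposited intensities are bead means from BeadStudio 2.3.41 without normalization, although the titles speak of normalised data; the deposited files also hold the count of beads and the spread between beads. That spread scaled with bead number with a slope of -0.44 in ES and -0.47 in EB on log scales, where a standard error gives -0.5, and was read as one. The deposited detection score exists for EB, so in ES a signal above the median of 173.9 counted as detected. The submitters' processing notes name BeadStudio 2, RMA and limma with no role. The authors' series value table, a linear intensity made in a way not stated, served as an alternative.

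Signals were quantile normalized and put on the log2 scale, with no background step. Some probe identifiers carry zero-padded numbers, and those from 10000 upward were taken as NCBI Gene numbers. Of the 46643 probes 11857 had such a number, and 9796 of these (82.6%) matched the RefSeq gene table of GRCm38.p6. The other probes were not assigned to genes. The probe with the highest mean log2 signal stood for its gene. Full values are given for genes past the size rule, between 1.5-fold and 2-fold, among the 10 brightest, or with disagreeing probes. The rule for members reads symbols and no measured value, but the rule and the lists were chosen with earlier results of these data known. The tools were Python 3.11.15, numpy 2.4.6 and pandas 2.3.3, with limma 3.58.1 in R 4.3.3 for normexp. The number of arrays limits the precision.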

Additional observations from a re-analysis of the deposited data

How the results depend on the processing

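No paired analysis was possible because there is 1 array a group, and no replicate could be left out. Restriction to genes above the floor on an array was chosen after the data were seen, and the other alternatives were planned. The limits on mean signal were not part of the plan. The counts of redox genes, 2 higher and 3 lower, stayed within 1.5 times without scaling, with median scaling, with normexp background (offset 50), with signals raised to the floor, above the floor on an array, with detection in both arrays, without a detection filter, by the mean over probes and by single probes. The authors' series value table gave 3 higher redox genes, adding Akr1e1 (1.22), and 6 lower ones, adding Glrx, Mt3 and Mt4, whose EB signals were near or under the floor, and 545 higher and 577 lower among all genes. A 1.5-fold limit gave 7 and 7 redox genes and 479 and 471 of all genes, a log2 limit of 2 gave 0 and 0 and 23 and 40, as their construction sets. Detection in both arrays left 134 of all genes lower, as fewer genes entered. The signs of the 5 called genes held under all 6 settings that give each gene a value of its own. Raising signals to the floor cannot turn a sign, and the mean over probes could alter only Gstm2, since the other 4 had 1 probe. Trf went from -1.30 to -0.49 with signals raised to the floor and to -3.97 with the value table, and Gstm2 to -0.85 by the mean over probes, so these 2 calls depend on the setting. The median of the detected redox genes ran from -0.04 to 0.16 and has no firm sign. Signal over background limits the dim genes: 16 of 52 were under the floor on both arrays.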
